A study of Musca domestica with 24 samples.

Results

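Superoxide dismutases and the glutathione S-transferase GST-6A are enzymes of the fly's defence against reactive oxygen and foreign chemicals. They were followed here in single house flies, Musca domestica, after RNA interference (RNAi) against the sex-determining gene Md-tra or against GFP. The genes were taken by symbol, as every row whose symbol starts with SOD together with the row GST-6A. This gave 4 of the 16540 genes in each table: SOD1 (gene identifier 101891131, Muller element C), SOD2 (101887840, element C), SOD (101890504, element D) and GST-6A (101887423, element E). Muller elements are the chromosome arms that flies share, and are given as the deposited tables list them.

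Superoxide dismutases turn the superoxide radical, a by-product of respiration, into hydrogen peroxide and oxygen, and hydrogen peroxide is then removed by catalase and peroxidases. In Drosophila the gene called Sod1 encodes the copper-zinc enzyme of the cytosol and Sod2 the manganese enzyme of mitochondria. The house fly tables give symbols alone, so which enzyme form each of SOD1, SOD2 and SOD encodes is not stated. Glutathione S-transferases attach glutathione to reactive or fat-soluble compounds so that these can be excreted, and in house flies the family is known from work on insecticide resistance.

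All flies came from strain IIIM (3-6). Md-tra, the transformer gene of the house fly, is needed for female development. GFP is a jellyfish gene that flies lack, so double-stranded RNA against it served as the control. Each tissue, abdomen or head, had 4 groups of 3 single flies: N and SR, which both received Md-tra RNAi and were all phenotypic males, then GFP RNAi females and GFP RNAi males, whose genotypic and phenotypic sex matched. The sources disagree on which of N and SR was genotypically female: the sample titles say N, while the column headings of the authors' fold changes give the sex-reversed flies as SR. Both groups are therefore named by code, and contrasts that need the genotype are given under both readings.

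Reads per library, recovered from the tables, ran from 2689265 to 16113838 in N abdomens, 24100066 to 41657177 in SR abdomens, 56719614 to 77407229 in GFP female abdomens and 20916287 to 31364368 in GFP male abdomens. Head libraries held 12080603 to 79454339 reads. The 4 genes had 59 to 15827 reads in abdomen libraries and 517 to 32659 in head libraries, so counting error alone reached at most 13% of a value in abdomens and 4.40% in heads. SR head replicate 2 stood apart on the second principal component, at −137 where the other 11 head libraries lay between −37.3 and 50.5. The authors' deposited fold changes for SR heads match means without that library. Results on SR heads are given with and without it.

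**Figure D1:**
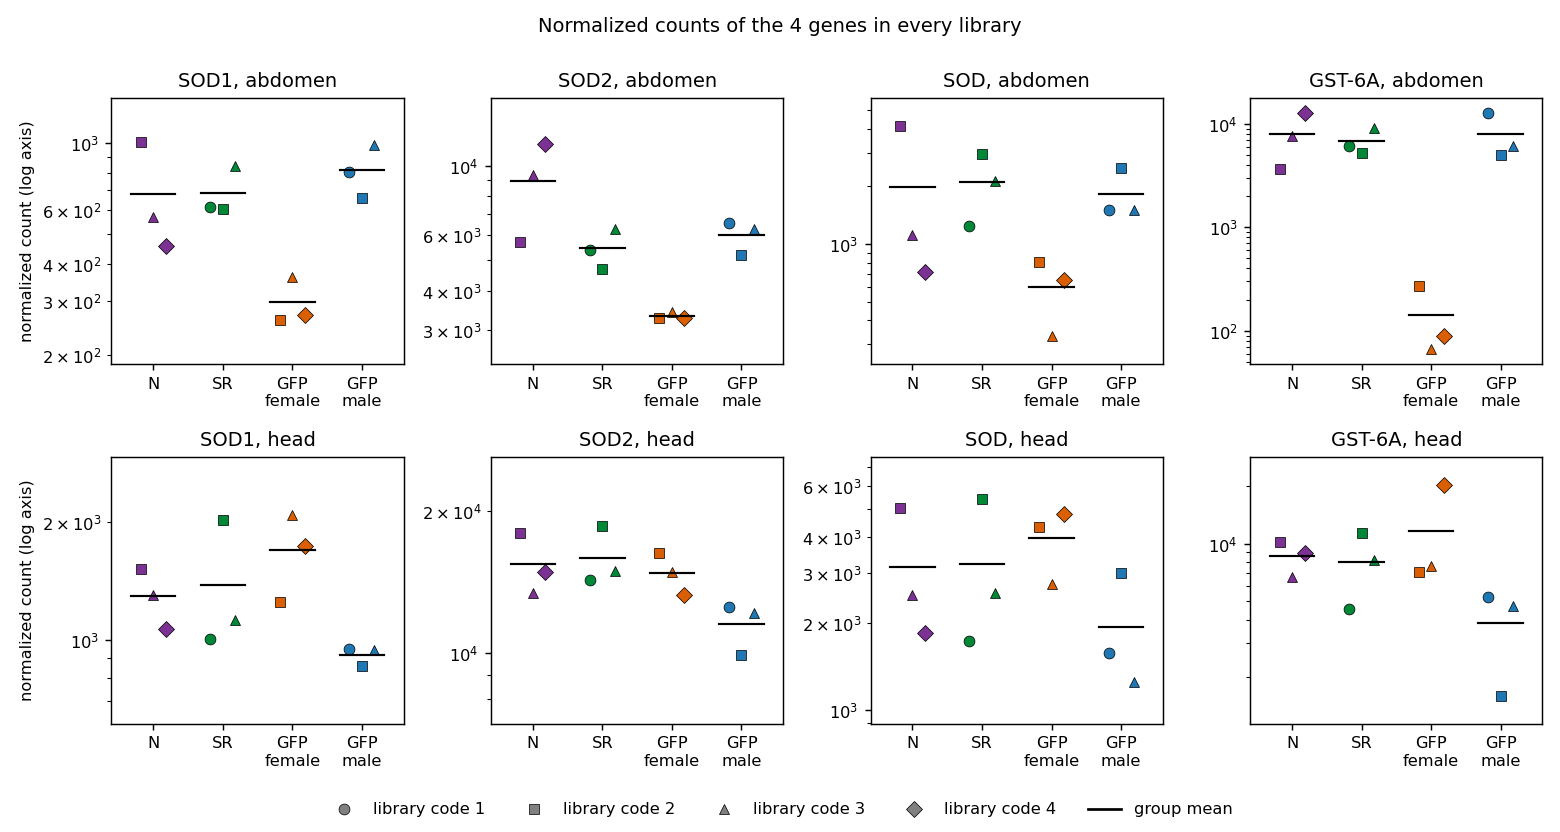
Normalized count (log axis) of SOD1, SOD2, SOD and GST-6A in each of the 24 libraries, by group, with abdomens above and heads below. Points are single flies shaped by the number in the library code and bars are group means; GFP female abdomens lie lowest for SOD1, SOD2 and GST-6A, whereas GFP male heads lie lowest for SOD1 and SOD2.

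GST-6A was far lower in GFP female abdomens than in the abdomens of all 3 male groups. Values are normalized counts, the reads of a gene divided by a size factor per library. N abdomens held 3627, 7681 and 12754 normalized counts of GST-6A, and SR abdomens 6153, 5219 and 9015. GFP female abdomens held 269, 66.5 and 88.1 normalized counts, against 12777, 5016 and 6079.7 in GFP male abdomens. Each male library thus exceeded every GFP female library by more than an order of magnitude, and the ranges of N, SR and GFP males overlapped one another.

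The mean of GST-6A was 141 ± 111 in GFP female abdomens and 7958 ± 4208 in GFP male abdomens (SD, n = 3 each), 56.3-fold lower in females. With limma on log2(normalized count + 1) over all 12 abdomen libraries, the log2 difference was −5.96 ± 0.58 (SE) and the Benjamini-Hochberg adjusted p over 12537 genes was 7.67e-06. Against GFP females, N was higher by 5.91 ± 0.58 (adjusted p = 6.69e-06 by limma) and SR by 5.81 ± 0.58 (adjusted p = 9.75e-06). These are 56.7-fold and 48.1-fold higher means. Every alternative fit kept these 3 calls, and so did leaving out any 1 library of the 2 groups compared.

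Change was the rule rather than the exception in the abdomen. By limma, 77.7% of genes tested were called, that is had an adjusted p under 0.05, between GFP females and GFP males, with 44.3% lower in females. In N against GFP females 76.3% were called, with 42.1% higher, and in SR against GFP females 76.5%, with 43.7% higher. GFP females lay below GFP males without overlap for 47.8% of genes, N above GFP females for 42.2% and SR above GFP females for 46.6%. The size of the GST-6A difference can be read against this background: 9.75% of genes tested had a more negative difference between GFP females and GFP males.

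Transcripts of the ovary separated the same libraries. bcd, the bicoid gene whose RNA is stored in eggs, was at 0 in 2 of 3 N abdomens and in the 3 SR abdomens, at 2225 to 3315 normalized counts in GFP female abdomens and at 0 in GFP male abdomens. armadillo, the beta-catenin gene of Drosophila whose RNA is also stored in eggs, was at 1402 ± 201 normalized counts in N, 1588 ± 400.4 in SR, 13062 ± 786 in GFP female and 1442 ± 103 in GFP male abdomens (SD, n = 3 each). Their part in the differences of the 4 genes was not tested. Abdomens were sequenced whole, so fewer cells of a type and less RNA per cell cannot be told apart for any of the 4 genes. The genes para-like and IR25a, chosen as markers of neurons and sense organs, fell on the same side as GST-6A. para-like takes its name from the Drosophila sodium channel gene para. It had 7313 ± 3109 normalized counts in N and 13819 ± 2216 in SR abdomens. GFP female abdomens had 169 ± 241, against 10485 ± 2994 in GFP male abdomens (SD, n = 3 each). IR25a, a chemosensory receptor gene, had 262 ± 117 in N and 75.3 ± 25.3 in SR abdomens. GFP female abdomens had 0.98 ± 0.59 of it, against 75.6 ± 25.4 in GFP male abdomens. Its part in the GST-6A difference was not tested either. As reads scaled to the library total (RPM), para-like averaged 541 in SR abdomens and 270 in SR heads. IR25a averaged 11.8 RPM in both tissues of N. In N and both GFP groups para-like was higher in heads, and in SR and both GFP groups IR25a was. Which abdominal cells express these genes was not tested. yp3, a yolk protein gene made in fat body, did not follow bcd and armadillo. It had 3173, 669 and 777 normalized counts in N, 6253, 24021 and 7747 in SR, 15574, 21.1 and 253.6 in GFP female and 1975, 273 and 679 in GFP male abdomens. GFP female replicate 1, the highest of its group in yp3, also had the highest GST-6A and para-like of the 3. Without that fly the GST-6A difference between GFP females and GFP males was −6.56 (adjusted p = 3.69e-06 by limma).

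By normalized counts, SOD1 was lower in GFP female abdomens than in every other abdomen. N abdomens had 1011, 571 and 459 normalized counts of SOD1, and SR abdomens 614, 606 and 841. GFP female abdomens had 260.3, 362 and 270.1, against 805, 658 and 986 in GFP males. The highest GFP female, 362, lay under the lowest of the other 9 libraries, 459, while the 3 male groups overlapped. With reads scaled to the library total, GFP female replicate 2, at 22.1 RPM, lay above N replicates 2 and 3, at 21.0 and 21.4 RPM.

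For SOD1 the GFP female abdomens were 2.74-fold below GFP males, a log2 difference of −1.45 ± 0.30 with a Benjamini-Hochberg adjusted p of 0.00116 by limma. SOD1 was 2.28-fold higher in N than in GFP females, a log2 difference of 1.12 ± 0.30 (adjusted p = 0.00554 by limma). In SR it was 2.31-fold higher than in GFP females, a log2 difference of 1.20 ± 0.30 (adjusted p = 0.00385). The sex difference in SOD1 passed the threshold under every alternative. The calls against N and SR were lost under trimmed-mean (TMM) scaling, where the differences were 0.59 for N (adjusted p = 0.0922) and 0.70 for SR (adjusted p = 0.0511).

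Several of these calls depended on the scaling between libraries. Under the authors' size factors the median of all genes lay at −0.61 on the log2 scale for GFP females minus GFP males, at 0.53 for N minus GFP females and at 0.68 for SR minus GFP females. TMM moved those medians to −0.10, 0.02 and 0.20. Relative to the median gene, SOD1 differed by −0.84 between GFP females and GFP males, by 0.60 for N and by 0.53 for SR.

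SOD2 was low and even in GFP female abdomens and highest in N. N abdomens had 5727, 9344 and 11759 normalized counts of SOD2, and SR abdomens 5392, 4698 and 6267. GFP female abdomens had 3267, 3432 and 3281, against 6588, 5181 and 6308 in GFP males. All GFP female values lay below the other 9, and N replicates 2 and 3 lay above every other library while N replicate 1 fell among SR and GFP males.

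SOD2 averaged 8943 ± 3036 in N and 3326 ± 91.4 in GFP female abdomens (SD, n = 3 each), a log2 difference of 1.37 ± 0.24 with an adjusted p of 0.000371 by limma, and every alternative kept this call. The other SOD2 calls depended on scaling. In SR it was 0.70 ± 0.24 higher than in GFP females (adjusted p = 0.0206 by limma), close to the median gene, with 50.3% of genes tested below it, and under TMM the difference was 0.20 (adjusted p = 0.471). GFP females were lower than GFP males by −0.85 ± 0.24 (adjusted p = 0.00768), and by −0.32 under TMM (adjusted p = 0.242). With reads scaled to the library total, SOD2 had 388 ± 144 RPM in N, 213 ± 29.0 in SR, 206 ± 2.98 in GFP females and 218 ± 11.4 in GFP males (SD, n = 3 each).

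Of the 4 genes, SOD2 had the largest difference between N and SR abdomens. The log2 difference N minus SR was 0.66 ± 0.24 (95% confidence interval 0.13 to 1.19), which limma did not call after adjustment (adjusted p = 0.0880). In the authors' deposited table the fold change of N over SR was 0.71 on the log2 scale with an adjusted p of 0.0340, and DESeq2 run on the recovered reads gave 0.72 (adjusted p = 0.0287). Without N replicate 1 the limma difference was 0.95 (adjusted p = 0.0172). By limma 14.6% of genes were called between N and SR abdomens. The N libraries were the shallowest of the abdomens, and the part of depth in this difference was not tested.

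The gene listed simply as SOD varied more among the flies of each group than SOD1 and SOD2 did. N abdomens had 4144, 1118 and 715 normalized counts of SOD, and SR abdomens 1249, 2962 and 2132. GFP female abdomens had 811, 331 and 651, against 1499.6, 2487 and 1499 in GFP males. GFP females lay below all SR and GFP male flies, but N replicate 3 fell inside the GFP female range.

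In abdomens SOD was called lower in GFP females than in GFP males, by −1.66 ± 0.60 on the log2 scale (adjusted p = 0.0257 by limma), and higher in SR than in GFP females, by 1.83 ± 0.60 (adjusted p = 0.0169). For N against GFP females the difference was 1.41 ± 0.60 (adjusted p = 0.0510). Under TMM the SOD differences were −1.14 between GFP females and GFP males (adjusted p = 0.0932) and 1.33 for SR (adjusted p = 0.0573). The sex difference was also lost without GFP female replicate 2 or GFP male replicate 2, and the SR difference without GFP female replicate 2 or SR replicate 2. Without N replicate 1, the N difference was 0.68 (adjusted p = 0.206).

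In all, 3 of the 4 genes were called higher in N than in GFP female abdomens, 4 of 4 in SR, and 4 of 4 lower in GFP females than in GFP males. Across all genes these shares were 42.1%, 43.7% and 44.3%, and 77.7% were called in either direction between the GFP groups. Under TMM the calls were lost for SOD1 in N and for SOD1, SOD2 and SOD in SR. Between GFP females and GFP males they were lost for SOD2 and SOD. Lying below all 9 other libraries in the 3 GFP female abdomens, as SOD1, SOD2 and GST-6A did by normalized counts, was found for 36.8% of genes tested. With reads scaled to the library total it held for GST-6A and not for SOD1 or SOD2.

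Between male groups no difference was called for any of the 4 genes. N minus GFP males gave log2 differences of −0.33 for SOD1 (95% confidence interval −0.99 to 0.34), 0.52 for SOD2 (−0.02 to 1.05), −0.25 for SOD (−1.58 to 1.08) and −0.04 for GST-6A (−1.34 to 1.25). Without N replicate 1, the SOD2 difference was 0.81 and was called (adjusted p = 0.0443 by limma). SR minus GFP males gave −0.25 for SOD1 (−0.91 to 0.42), −0.15 for SOD2 (−0.68 to 0.39), 0.17 for SOD (−1.16 to 1.49) and −0.14 for GST-6A (−1.44 to 1.15). The intervals for SOD and GST-6A leave room for more than a doubling or a fall of that size. By limma 8.88% of genes were called for N minus GFP males and 0.16% for SR minus GFP males. The first share rests on 1113 genes, which became 10 without GFP male replicate 1.

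**Figure D2:**
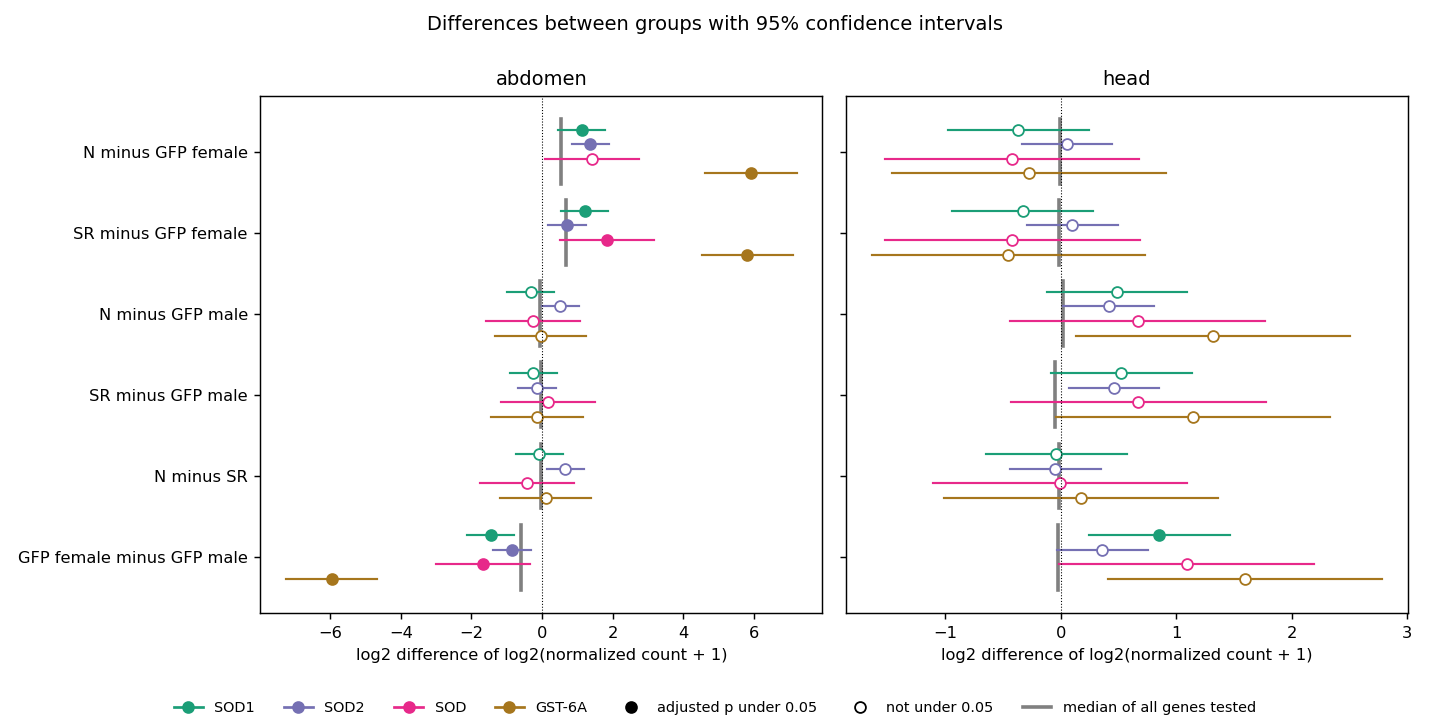
Log2 difference of log2(normalized count + 1) with its 95% confidence interval for the 4 genes in 6 comparisons, in abdomens and heads, with called differences filled and the median of all genes as a grey bar. In abdomens GST-6A stands near −5.96 for GFP females minus GFP males and near 5.91 and 5.81 for N and SR minus GFP females, far from the medians of −0.61, 0.53 and 0.68, while SOD2 in SR at 0.70 sits on its median.

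The interaction term asks whether Md-tra RNAi moved genotypic females and genotypic males by different amounts. Read by the sample titles, it is the N minus GFP female difference less the SR minus GFP male difference, and in abdomens it was 1.37 for SOD1 (adjusted p = 0.0150 by limma), 1.51 for SOD2 (adjusted p = 0.00265), 1.25 for SOD (adjusted p = 0.211) and 6.06 for GST-6A (adjusted p = 0.000124). Read by the deposited headers, with N and SR exchanged, it was 1.53 for SOD1 (adjusted p = 0.00943), 0.19 for SOD2 (adjusted p = 0.643), 2.08 for SOD (adjusted p = 0.0520) and 5.86 for GST-6A (adjusted p = 0.000209). The label question therefore decided the call for SOD2 and not for SOD1 or GST-6A. For SOD1 both calls were lost under TMM, with 0.81 by the titles (adjusted p = 0.106) and 1.04 by the headers (adjusted p = 0.0513). By limma 67.2% of genes had a called interaction by the titles and 62.9% by the headers.

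In heads the sexes stood the other way round. SOD1 was higher in GFP female than in GFP male heads. SOD2 and GST-6A had higher normalized counts in every GFP female head than in any GFP male head, without passing the test. GFP female heads lay above GFP male heads without overlap for 23.5% of genes tested. Md-tra RNAi heads were not called different from either control for any of the 4 genes.

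SOD1 had 1517, 1302 and 1069.7 normalized counts in N heads and 1006, 2023 and 1125 in SR heads. GFP female heads had 1255, 2089 and 1734, against 950.3, 857 and 942 in GFP males. GFP males lay below all 9 other heads, although the nearest SR head, 1006, was close to their highest, 950.3. GFP female heads were 1.85-fold above GFP male heads, a log2 difference of 0.85 ± 0.28 with an adjusted p of 0.0448 by limma, where 25.6% of genes were called and 11% were called higher. Leaving out the 6 GFP libraries 1 at a time, this call was kept without GFP female replicate 1 and lost without any of the other 5, with adjusted p up to 0.156. The count of called genes moved as well, between 481 and 3887 where the full fit called 3137, so the background share is itself uncertain.

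SOD2 in heads had 17987, 13449 and 14863 normalized counts in N and 14293, 18550.2 and 14936 in SR. GFP female heads had 16276, 14838 and 13284, against 12553, 9941 and 12185 in GFP males. GFP male heads were again the lowest 3 of 12, by a narrow margin. With reads scaled to the library total, GFP male replicates 1 and 3, at 417 and 411 RPM, lay above GFP female replicates 2 and 3, at 386 and 404 RPM. The difference between GFP females and GFP males was 0.36 ± 0.18 (adjusted p = 0.154 by limma). Lying below all 9 other heads in the 3 GFP males, as SOD1 and SOD2 did by normalized counts, was found for 9.69% of genes tested. With reads scaled to the library total it held for SOD1 and not for SOD2.

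SOD in heads had 5052, 2513 and 1858 normalized counts in N and 1732, 5414 and 2545 in SR. GFP female heads had 4334, 2740.1 and 4801, against 1575, 2997.5 and 1250.3 in GFP males. All 4 groups overlapped, and 1 library in each of N, SR and GFP males stood well above its 2 companions. The difference between GFP females and GFP males was 1.09 ± 0.50 (adjusted p = 0.127 by limma).

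GST-6A in heads had 10198, 6641 and 8964 normalized counts in N and 4553, 11331 and 8177 in SR. GFP female heads had 7056, 7599 and 20208, against 5226, 1593 and 4689.6 in GFP males. GFP females and N lay above GFP males without overlap, and SR replicate 1 fell inside the GFP male range. GFP females were 3.03-fold above GFP males, a log2 difference of 1.60 ± 0.54 (95% confidence interval 0.41 to 2.78; adjusted p = 0.0507 by limma). Without the highest fly, GFP female replicate 3, the log2 difference was 1.11 (adjusted p = 0.157), and without the lowest, GFP male replicate 2, it was 1.05 (adjusted p = 0.188). The authors' deposited table, which gives males over females, has −1.60 with an adjusted p of 0.0115.

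Lying lower in GFP female than in GFP male abdomens and higher in GFP female than in GFP male heads, without overlap in either tissue, held for SOD1, SOD2 and GST-6A and for 10.5% of the 11178 genes tested in both tissues. For SOD2 it held in neither tissue with reads scaled to the library total. The tissues were scaled separately, so the difference between tissues was not tested.

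Against GFP females, N heads differed by −0.37 for SOD1, 0.05 for SOD2, −0.42 for SOD and −0.28 for GST-6A, with adjusted p at 0.631 or above by limma, where 0.907% of genes were called. SR heads differed from GFP female heads by −0.33 for SOD1, 0.10 for SOD2, −0.42 for SOD and −0.45 for GST-6A, where 0.163% of genes were called. Without SR head replicate 2 those values were −0.64, −0.01, −0.87 and −0.75, again uncalled. Of the 3 SR heads, replicate 2 was the highest for each of the 4 genes.

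Against GFP males, N heads lay higher without overlap for SOD1, SOD2 and GST-6A, as for 22.5% of genes tested, and SR heads for SOD1 and SOD2, as for 17.4%. N heads had log2 differences of 0.49 for SOD1, 0.41 for SOD2, 0.67 for SOD and 1.32 for GST-6A (adjusted p = 0.265, 0.146, 0.406 and 0.129 by limma), where 11.7% of genes were called, 1429 genes, which became 46 without GFP male replicate 2. SR heads had 0.53, 0.46, 0.67 and 1.14 for the same genes (adjusted p = 0.263, 0.142, 0.421 and 0.212), where 4.49% were called. Without SR head replicate 2 these were 0.22, 0.35, 0.22 and 0.85. The point estimates were above 0 for each gene in both groups, and none passed the test.

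N minus SR heads gave differences of −0.04 for SOD1, −0.05 for SOD2, −0.01 for SOD and 0.17 for GST-6A, where 0.302% of genes were called. Without SR head replicate 2 these were 0.27, 0.07, 0.45 and 0.47, with adjusted p at 0.781 or above by limma. No head interaction was called for the 4 genes by either reading, where 2.42% of genes were called by the titles and 11.1% by the headers. Without SR head replicate 2, the interaction by the headers reached −1.12 for SOD1 (adjusted p = 0.0427 by limma).

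Ordered by mean in abdomens, SOD1 ran GFP male, SR, N, GFP female, SOD2 ran N, GFP male, SR, GFP female, SOD ran SR, N, GFP male, GFP female, and GST-6A ran N, GFP male, SR, GFP female. On the log2 scale of the test the order of N and GFP males was reversed for SOD and GST-6A, with N minus GFP males at −0.25 and −0.04. No pair of neighbours among the male groups passed the test, and the step down to GFP females was the 1 step with called differences. In heads the order was GFP female, SR, N, GFP male for SOD1 and SOD, SR, N, GFP female, GFP male for SOD2, and GFP female, N, SR, GFP male for GST-6A. Without SR head replicate 2, SR fell below N for SOD1, SOD2 and SOD, with log2 differences N minus SR of 0.27, 0.07 and 0.45. For SOD2 it also fell just below GFP females, by −0.01. No pair of neighbours in these head orders passed the test.

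SOD showed a further regularity that the groups do not describe. Library codes carry a number from 1 to 4, and the labels do not state that the abdomen and the head with 1 number came from the same fly. The library coded 2 had the highest SOD value in 7 of the 8 sets of 3 libraries, a pattern found in 1.32% of the 11178 genes tested in both tissues, and SOD1, SOD2 and GST-6A showed it in 3 of 8. In abdomens, code 2 exceeded the mean of its 2 companions 4.52-fold in N, 1.75-fold in SR, 1.65-fold in GFP females and 1.66-fold in GFP males. In heads the ratio was 2.31 in N, 2.53 in SR, 1.15 in GFP females and 2.12 in GFP males. The exception was the GFP female heads, where code 4 was highest.

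Deviations of SOD from the group mean in abdomens went with those in heads of the same group and code number. Over 12 such pairs Pearson's r was 0.885 and Spearman's rho 0.909, each with an exact permutation p of 0.00231 from 1296 exchanges within groups, two-sided, and a Benjamini-Hochberg adjusted p of 0.0370 over 16 relations. Without the 2 pairs farthest from the median r was 0.881. For SOD1, SOD2 and GST-6A, r was 0.345, −0.387 and −0.01, none past adjustment. Across all genes tested in both tissues the median r was 0.138, and 0.841% of genes reached that of SOD. A block for the code number was added after the data were seen, so its calls are no independent support. With it the SOD difference between N and GFP female abdomens, 1.41, was called (adjusted p = 0.0190 by limma, 0.0510 without it). Under the block 9502 of 12537 genes were called in this comparison. N and GFP female libraries carry the same code numbers, so the block could not change the size of the difference.

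**Figure D3:**
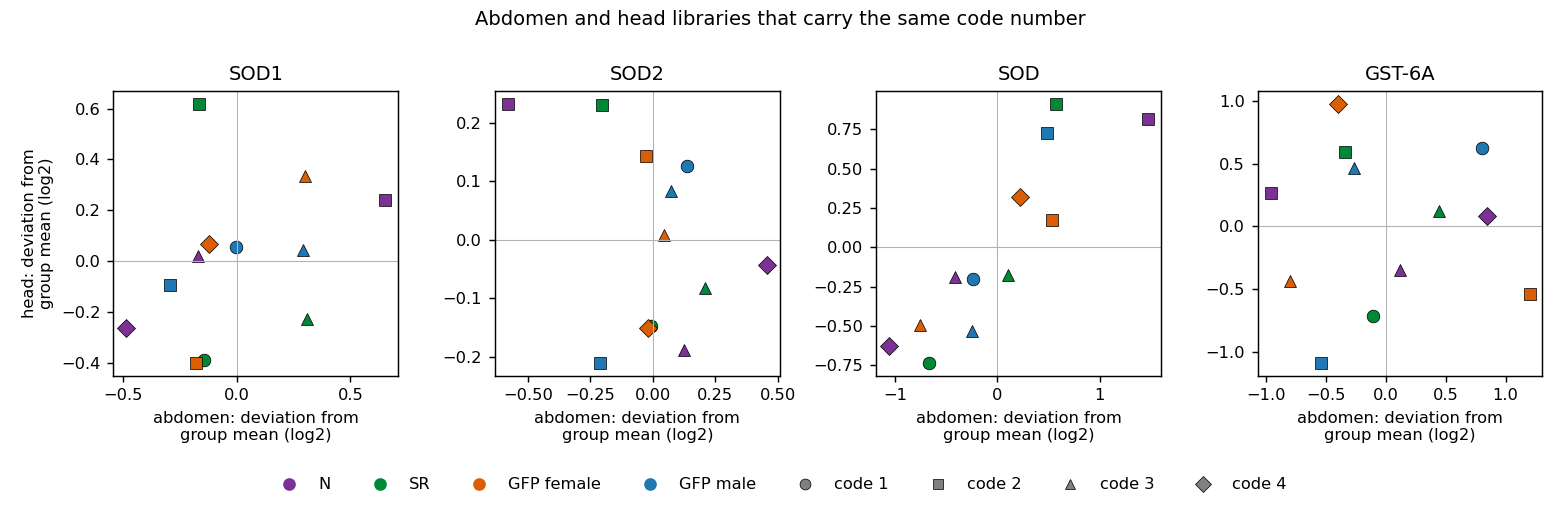
Deviation from the group mean of log2(normalized count + 1) in the abdomen (horizontal) and in the head (vertical) for libraries of the same group and code number, in 1 panel per gene, coloured by group and shaped by code. The SOD points follow a rising line (r = 0.885) with code 2 at the upper right, whereas SOD1, SOD2 and GST-6A give r of 0.345, −0.387 and −0.01.

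The 4 genes did not track one another closely within groups. Of 12 relations between pairs of genes, 6 in each tissue, none passed adjustment over the 16 relations. The strongest was between SOD2 and SOD in abdomens, r = −0.848 with an exact permutation p of 0.0170 (adjusted 0.136), and it fell to −0.560 without 2 libraries. SOD2 and GST-6A in abdomens had r = 0.655 with an exact permutation p of 0.0285 (adjusted 0.152).

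Other detoxification genes with a symbol shared the abdominal pattern of GST-6A. The list held 11 such genes: cytochrome P450 monooxygenases, which oxidise foreign compounds and hormones, their reductase CPR and cytochromes b5 CYB1 and CYB2, a second glutathione S-transferase listed as GST, and MdaE7, an esterase known from insecticide-resistant flies. In GFP female against GFP male abdomens 10 were called lower, none higher, and CPR was not called, where 44.3% of all genes were called lower. Their median log2 difference was −5.40, where that of all genes was −0.61. In N against GFP females 10 were called higher and CPR lower, with a median of 5.89, where 42.1% of all genes were called higher. In SR 11 of 11 were higher, with a median of 5.50, where 43.7% of all genes were.

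GST followed GST-6A in the abdomen and not in the head. In abdomens GST averaged 4921 ± 1511 normalized counts in N, 3576 ± 1252 in SR and 2263 ± 626 in GFP males, and had 370.3, 21.9 and 21.3 in the 3 GFP females. The difference between GFP females and GFP males was −5.26 ± 0.89 for GST (adjusted p = 0.000295 by limma). In heads it was −0.62 ± 0.35 (adjusted p = 0.211), opposite in sign to the 1.60 of GST-6A. Of the 3 genes whose list names were found only as synonyms in the reference gene table, Gst-2 was lower in GFP female than in GFP male abdomens by −7.33 (adjusted p = 4.35e-05), and both P450 genes, CYP6A1 and CYP6A40, were lower as well. Against GFP females, Gst-2 was called higher in N and in SR and CYP6A40 in N. Of all genes, 44.3% were called lower in GFP females than in GFP males, 42.1% higher in N and 43.7% higher in SR. CYP6A40 in SR (adjusted p = 0.0605 by limma) and CYP6A1 in N and SR (adjusted p = 0.223 and 0.123) were not called.

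In heads, 4 of the 11 genes were called higher in GFP females than in GFP males and none lower, where 11% of all genes were called higher. The list had a median of 0.46, where that of all genes was −0.02. These were CPR at 1.29, CYB1 at 1.94, CYP6G4 at 1.28 and MdaE7 at 0.73 on the log2 scale. SOD1, at 0.85, was the 1 called gene of the 4 under study. In N against GFP female heads CPR was called lower, by −1.36 (adjusted p = 0.0118 by limma), and no other list member was called in N or SR heads against either control.

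**Figure D4:**
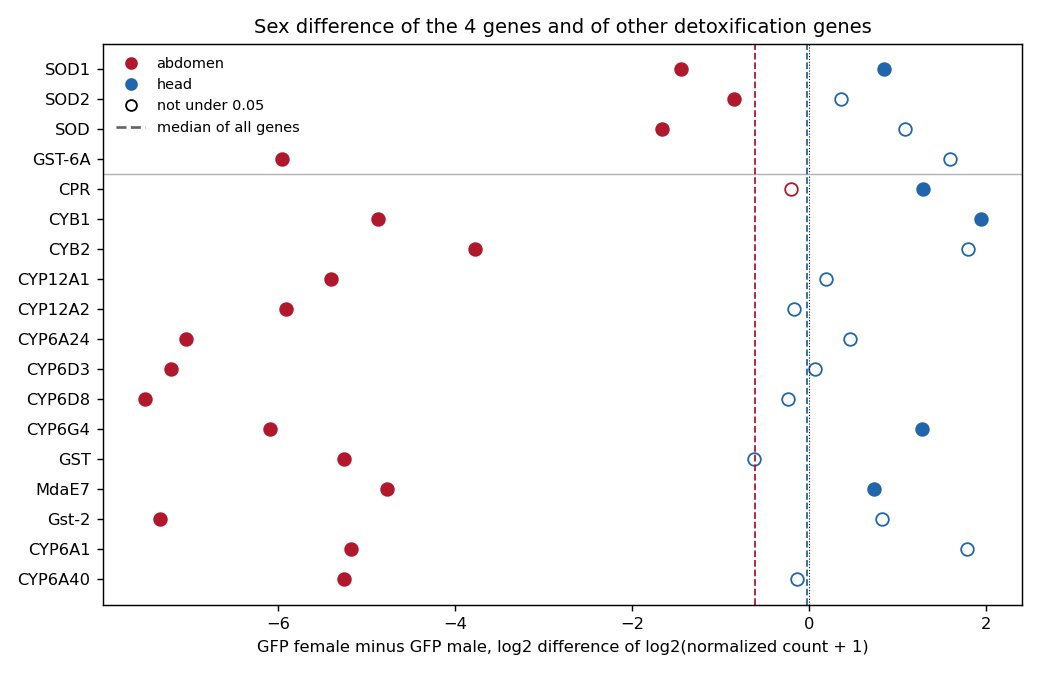
Log2 difference of GFP females minus GFP males in abdomens and heads for the 4 genes and 14 other detoxification genes, with called differences filled and the median of all genes as a dashed line per tissue. GST-6A at −5.96 lies among most of the listed genes in abdomens, whose median is −5.40 for the 11 matched by symbol, whereas SOD1 at −1.45 and SOD2 at −0.85 lie near the median of all genes.

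The genes whose levels followed each member most closely were known by identifier alone. Over the 12 abdomen libraries, LOC101895036 on element E followed GST-6A with r = 0.996, LOC101899000 on element C followed SOD2 with r = 0.992, LOC101897373 on element E followed SOD1 with r = 0.958 and LOC101893487, with no element listed, followed SOD with r = 0.930. In heads, LOC101896051 on element E followed SOD1 with r = 0.978, LOC101901471 on element B followed SOD2 with r = 0.943, LOC101901585 on element A followed GST-6A with r = 0.918 and LOC109614490 on element D followed SOD with r = 0.876. These values describe likeness across libraries that share group differences, and the best match in the abdomen was a different gene from that in the head for each member.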

How the data were processed

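Poly(A) RNA of single abdomens and heads was sequenced with a stranded kit, from 1.5 µg of RNA (1.2 µg for GFP female head replicate 1), per the labels' protocols. HTSeq 0.9.1, DESeq2 1.16.1, HISAT2 and CASAVA 1.8 appear in the submitters' processing notes without their roles. The genome build is not given in the sources used here. Expression was deposited as normalized counts, a signal of reads divided by a size factor per library, per the file headers, with the authors' own log2 fold changes and adjusted p-values. Dividing by the worth of 1 read (0.206 to 7.83 in abdomens, 0.373 to 2.52 in heads) gave whole reads for 100% of values within 0.001.

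Genes reaching 10 in at least 3 of 12 libraries were kept, 12537 in abdomens and 12237 in heads, and all 4 members passed in both. Tests used limma 3.58.1 (R 4.3.3, trended prior) on log2(value + 1), a scale that understates changes of low genes, over 12 libraries per tissue with Benjamini-Hochberg adjustment over the genes kept and a threshold of 0.05. Genes called by this test are those described as called. Alternatives were edgeR 4.0.16 and DESeq2 1.42.0 on recovered reads, TMM scaling, a pseudocount of 10, no filter, a replicate block, the compared groups alone, leaving out each library and, chosen after the data were seen, a library code block. On the recovered reads edgeR called 10322 genes between GFP female and GFP male abdomens and 2961 in heads. Same-numbered libraries deviated together with r above 0.1 in all 3 pairs only in SR and GFP male abdomens (r = 0.179 to 0.465, from the data). There the replicate block moved the calls from 20 to 14 and changed none of the 4 genes.

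Members were the rows selected by symbol, and other genes were named by a fixed list of symbol starts, by marker symbols and, for each member and tissue, as the 3 most correlated genes, of which the first is given. Members and lists were chosen with earlier results of these data known. Matching list names through synonyms of the reference gene table, which holds 13644 of the identifiers, was added after the tables were read. Levels were not compared between genes, since lengths were not used, and paralogs may share reads. Protein relatives, the target Md-tra and the marker Orco are not analysed here. Of the other markers, Sxl was at 2271 ± 319 in GFP female and 662 ± 74.6 in GFP male abdomens, and para-like and IR25a were found in the heads of all groups. Flies are called biological replicates by the labels, and intervals of counts cover counting error only.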

Additional observations from a re-analysis of the deposited data

Results flagged for a closer look

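Differences between GFP females and GFP males took opposite directions in the tissues for 3 of the 4 genes, with every library of one sex on one side. The log2 differences were −1.45 in abdomens and 0.85 in heads for SOD1, −0.85 and 0.36 for SOD2, and −5.96 and 1.60 for GST-6A. This pattern was found for 10.5% of the 11178 genes tested in both tissues. In heads SOD2 and GST-6A were not called (adjusted p = 0.154 and 0.0507 by limma). With reads scaled to the library total, SOD2 in GFP male abdomen replicate 2, at 205 RPM, fell within the GFP female range of 203 to 209. By the same scaling, SOD2 in GFP male head replicates 1 and 3, at 417 and 411 RPM, fell within the GFP female head range of 386 to 432. The difference between the tissues was not tested.

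The effect of Md-tra RNAi in abdomens differed between the genotypes by the interaction term of limma. Under the sample titles it was 1.37 for SOD1, 1.51 for SOD2 and 6.06 for GST-6A. Under the deposited headers it was 1.53 for SOD1 and 5.86 for GST-6A, while SOD2, at 0.19, was not called (adjusted p = 0.643). Both SOD1 calls were lost under TMM scaling and edgeR. By limma 67.2% of all genes had a called interaction by the titles and 62.9% by the headers.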

How the results depend on the processing

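The calls for GST-6A in abdomens, for SOD1 between GFP female and GFP male abdomens and for SOD2 between N and GFP female abdomens held under all 8 settings other than leaving out a library, and without any 1 library of the groups compared. TMM scaling and edgeR, which uses it, ended other abdominal calls, with log2 differences of 0.59 and 0.65 for SOD1 in N minus GFP females, 0.70 and 0.70 for SOD1, 1.33 and 1.32 for SOD and 0.20 and 0.21 for SOD2 in SR minus GFP females, −1.14 and −1.09 for SOD and −0.32 and −0.33 for SOD2 in GFP females minus GFP males, and interactions of SOD1 at 0.81 and 0.88 by the titles and 1.04 and 0.98 by the headers. The library code block lowered the interaction of SOD1 by the headers to 1.30, which lost its call. In heads SOD1 in GFP females minus GFP males lost its call at 0.85 with no filter, at 0.85 with the replicate block and at 0.82 with the code block. Calls were gained for SOD in N minus GFP female abdomens with DESeq2 at 1.74 and the code block at 1.41, for SOD2 in N minus SR abdomens with DESeq2 at 0.72, and for GST-6A in GFP female minus GFP male heads with TMM at 1.60 and DESeq2 at 1.60. Uncalled values changed sign in N minus GFP male abdomens for SOD with edgeR, 0.10, and DESeq2, 0.12, and for GST-6A with edgeR, 0.0097, DESeq2, 0.013, and the code block, 0.019. They did so too for SOD1 in N minus SR abdomens with the code block, 0.035, for the interaction of SOD2 by the headers with TMM, −0.31, and edgeR, −0.36, and for GST-6A in N minus SR heads with the code block, −0.11. The causes were not tested.

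Leaving out 1 library at a time moved the log2 differences as follows. In abdomens, GFP females minus GFP males ranged from −1.93 to −1.29 for SOD, N minus GFP females from 0.68 to 1.94 for SOD, and SR minus GFP females from 1.45 to 2.17 for SOD and 0.60 to 0.81 for SOD2. The last was lost without GFP female replicate 3 or SR replicate 3. N minus GFP males ranged from −0.99 to 0.28 for SOD, 0.29 to 0.81 for SOD2 and −0.47 to 0.44 for GST-6A, and SR minus GFP males from −0.12 to 0.50 for SOD and −0.41 to 0.26 for GST-6A. N minus SR ranged from −0.41 to 0.16 for SOD1, 0.43 to 0.95 for SOD2, −1.15 to 0.11 for SOD and −0.33 to 0.58 for GST-6A. The interaction by the headers ranged from 1.55 to 2.82 for SOD and −0.10 to 0.42 for SOD2. In heads, GFP females minus GFP males ranged from 0.69 to 1.05 for SOD1 and 1.05 to 1.91 for GST-6A, which was called at 1.87 without GFP female replicate 1. N minus GFP females ranged from −0.061 to 0.15 for SOD2 and −0.55 to 0.21 for GST-6A, and SR minus GFP females from −0.014 to 0.17 for SOD2 and −0.75 to 0.035 for GST-6A. N minus SR ranged from −0.23 to 0.27 for SOD1, −0.16 to 0.068 for SOD2, −0.41 to 0.45 for SOD and −0.19 to 0.47 for GST-6A, and the interaction by the headers from −1.12 to −0.62 for SOD1.

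Counts of called genes moved by over 1.5 times in 11 comparisons under settings that keep all libraries. The replicate block changed no other call of the 4 genes than that of SOD1 in heads. Apart from SR and GFP male abdomens, no comparison had r above 0.1 in all 3 pairs of libraries with the same replicate number. Correlations of deviations there ran from −0.203 to 0.349. With DESeq2, edgeR, the compared groups alone and the code block in turn, 1113 called genes in N minus GFP male abdomens became 2250, 432, 41 and 3, 20 in SR minus GFP males 268, 2, 13 and 1, and 1832 in N minus SR 2885, 1072, 148 and 185. In heads, N minus GFP females went to 611, 63, 38 and 30 where limma called 111, SR minus GFP females to 871, 9, 0 and 3 where it called 20, and N minus SR to 203, 21, 3 and 1 where it called 37. The count of 0 came from limma with 1074 genes at an unadjusted p under 0.05. DESeq2, the compared groups alone and the code block gave 2719, 2927 and 261 in N minus GFP male heads against 1429. DESeq2 and the code block gave 2029 and 72 in SR minus GFP males against 550, 1299 and 136 for the interaction by the titles against 296, and 2904 and 0 for that by the headers against 1362, the 0 with 2902 genes at an unadjusted p under 0.05 by limma and 1139 called by edgeR. The code block gave 1322 for GFP females minus GFP males against 3137. The replicate block gave 53, 7, 891, 202, 21, 143 and 197 in heads for N and SR minus GFP females, N and SR minus GFP males, N minus SR and the interactions by titles and by headers. Leaving out 1 library of the groups compared gave 10 to 1303 called genes in N minus GFP male, 8 to 21 in SR minus GFP male and 510 to 2083 in N minus SR abdomens. In heads it gave 481 to 3887 in GFP females minus GFP males, 33 to 232 in N minus GFP females, 6 to 76 in SR minus GFP females, 46 to 1450 in N minus GFP males, 38 to 343 in SR minus GFP males, 10 to 37 in N minus SR, 108 to 722 for the interaction by the titles and 6 to 2617 for that by the headers. Background shares for these comparisons are as uncertain as those counts. Depth limits N abdomens most, where the shallowest library held 2689265 reads.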

Other observations

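Head and abdomen libraries were scaled separately in the deposited tables, so levels can be set side by side only as reads scaled to the library total (RPM), with no test. GST-6A stood at 268 ± 42.8 RPM in N heads and 350 ± 220 in N abdomens, 234 ± 69.4 in SR heads and 266 ± 75.8 in SR abdomens, and 129 ± 64.1 in GFP male heads and 281 ± 125 in GFP male abdomens (SD, n = 3 each). In GFP females it stood at 333 ± 244 RPM in heads and 8.79 ± 7.02 in abdomens, so the low share of GST-6A in GFP females was seen in the abdomen and not in the head. SOD2 had the highest RPM of the heads in N, 481 ± 40.4, and SR, 477 ± 16.0, with 408 ± 23.3 in GFP females and 391 ± 39.0 in GFP males. Depth and the make-up of each library enter these shares.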
